A study of Mus musculus with 8 samples.

Results

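The genes named Gpr with a number encode G protein-coupled receptors and related membrane proteins, many of them orphans whose natural ligand is not settled. Of 21900 protein-coding mouse genes in the RefSeq table of GRCm38.p6, the assembly behind mm10, 74 have a symbol of Gpr, a number and at most 1 further letter. Pseudogenes and longer symbols such as Gpr37l1 are outside that rule. ChIP-seq, which sequences the DNA bound by an antibody, located H2A.Z in dissociated, unsorted cells of postnatal day 14 mouse testes. The 2 genotypes were control and Znhit1-CKO, spelled Znhit1-sKO in the protocol text, with 2 replicates of immunoprecipitate and of input each. What could be compared was 1 list of H2A.Z peaks for control testes, 1 for Znhit1-CKO testes and the authors' list of differential regions between them. The labels do not give the Cre line, the cells in which Znhit1 is deleted or the full genotype of the controls.

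A G protein-coupled receptor is a membrane protein with several transmembrane helices that, on binding its ligand, activates a heterotrimeric G protein. The alpha subunit and the beta-gamma dimer then act on enzymes such as adenylyl cyclase, which makes cAMP, while receptor kinases and arrestins end the signal. In germ cells cAMP is best known from the oocyte, where Gpr3 keeps its level high and holds meiosis in prophase. H2A.Z is a histone H2A variant found beside transcription starts, and ZNHIT1 is a subunit of the SRCAP complex, which puts it there.

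A boundary peak here is an H2A.Z peak that reaches within 1 kb of either annotated end of a gene. A control boundary peak with a Znhit1-CKO boundary peak at the same gene is called kept, and one without is called lost. These are calls per gene: a kept gene can hold a further control peak with no Znhit1-CKO peak on it, as Gpr162 and Gpr173 did. The gene symbols chose the members, and these peaks and regions were part of the same definition, drawn up with earlier results of these data known. All values are therefore descriptions of the lists, without tests, and with 1 list per genotype none has a replicate error. Intervals of shares are exact 95% binomial (Clopper-Pearson) intervals and cover counting error only. Those of medians are 95% intervals taken from the ranked values of the genes and cover the spread between genes only.

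The sequences below are examples of promoters of genes that lost, kept or lacked a peak, chosen by control peak width. They are the 250 bases before the annotated start, 5′ to 3′, from RefSeq (GRCm38.p6), with CpG dinucleotides in capitals. The genes of the first group lost their control peak in Znhit1-CKO and had the widest lost peaks for which such a stretch outside any annotated gene was found. The widest lost peak of Gpr179 lies at the 3′ end of the gene, away from the stretch shown. Gpr6 was added after its values were seen, beside its relative Gpr3.
Gpr15 (chr16:58718873-58719122, minus strand): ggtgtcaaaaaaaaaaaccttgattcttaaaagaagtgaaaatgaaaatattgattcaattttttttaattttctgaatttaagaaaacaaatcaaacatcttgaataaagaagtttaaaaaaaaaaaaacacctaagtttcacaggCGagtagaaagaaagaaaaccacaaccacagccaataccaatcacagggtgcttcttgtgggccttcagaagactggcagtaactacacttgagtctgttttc
Gpr179 (chr11:97352357-97352606, minus strand): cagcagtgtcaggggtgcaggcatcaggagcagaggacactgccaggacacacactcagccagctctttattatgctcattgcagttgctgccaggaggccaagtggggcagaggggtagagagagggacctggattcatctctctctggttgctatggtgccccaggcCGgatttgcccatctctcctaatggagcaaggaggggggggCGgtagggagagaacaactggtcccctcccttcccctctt
Gpr165 (chrX:96713218-96713467, plus strand): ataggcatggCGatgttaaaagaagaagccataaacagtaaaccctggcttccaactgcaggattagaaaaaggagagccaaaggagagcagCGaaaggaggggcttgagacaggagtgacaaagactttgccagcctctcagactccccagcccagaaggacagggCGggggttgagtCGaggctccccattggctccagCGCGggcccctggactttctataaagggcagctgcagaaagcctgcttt
Gpr6 (chr10:41072291-41072540, minus strand): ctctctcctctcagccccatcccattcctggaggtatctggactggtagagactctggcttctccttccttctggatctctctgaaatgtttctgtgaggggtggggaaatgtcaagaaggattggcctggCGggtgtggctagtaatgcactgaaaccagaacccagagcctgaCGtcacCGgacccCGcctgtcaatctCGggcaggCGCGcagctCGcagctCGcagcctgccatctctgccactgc
The second group kept its peak and was chosen by control width in the same way.
Gpr37 (chr6:25689981-25690230, minus strand): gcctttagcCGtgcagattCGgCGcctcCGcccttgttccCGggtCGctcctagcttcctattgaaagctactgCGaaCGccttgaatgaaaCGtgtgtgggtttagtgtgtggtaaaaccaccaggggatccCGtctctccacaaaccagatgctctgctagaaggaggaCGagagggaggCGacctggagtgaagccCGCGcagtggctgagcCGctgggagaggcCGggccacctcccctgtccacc
Gpr3 (chr4:133212537-133212786, minus strand): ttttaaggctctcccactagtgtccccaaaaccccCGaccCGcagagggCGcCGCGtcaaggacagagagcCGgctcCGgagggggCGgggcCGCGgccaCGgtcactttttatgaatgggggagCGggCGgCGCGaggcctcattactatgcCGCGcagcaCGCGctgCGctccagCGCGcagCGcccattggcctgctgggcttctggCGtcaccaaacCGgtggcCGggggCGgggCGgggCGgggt
Gpr157 (chr4:150087253-150087502, plus strand): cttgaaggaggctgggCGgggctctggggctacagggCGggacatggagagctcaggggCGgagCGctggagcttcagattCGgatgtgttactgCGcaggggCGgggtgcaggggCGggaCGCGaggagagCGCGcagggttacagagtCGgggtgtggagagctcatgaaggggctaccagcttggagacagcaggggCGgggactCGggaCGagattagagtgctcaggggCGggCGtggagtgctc
A single gene stands for those with no peak in either list.
Gpr119 (chrX:48674479-48674728, minus strand): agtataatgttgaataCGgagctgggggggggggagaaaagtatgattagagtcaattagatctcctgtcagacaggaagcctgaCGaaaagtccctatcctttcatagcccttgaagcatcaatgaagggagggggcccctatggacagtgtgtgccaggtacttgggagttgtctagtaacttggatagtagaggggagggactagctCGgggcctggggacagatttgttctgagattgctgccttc
The stretches of Gpr15 and Gpr179 hold 1 and 2 CpG dinucleotides, that of Gpr165 holds 6 and that of Gpr6 holds 9. Those of the kept genes hold 16 at Gpr37, 29 at Gpr3 and 18 at Gpr157, and that of Gpr119 holds 3.

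In control testes 50 of the 74 Gpr genes had a boundary peak, 67.6% (55.7 to 78.0%), against 67.6% of all protein-coding genes. In Znhit1-CKO testes 31 of the 50 kept a boundary peak and 19 lost it. The lost share was 38.0% (24.7 to 52.8%), where 11.5% of all genes with a control boundary peak lost it. Another 2 genes, Gpr61 and Gpr141, had a peak only in Znhit1-CKO (1.74% of all genes without a control boundary peak did), and 22 had none in either list. A differential region lay at an end of 31 of the 50 genes, 62.0% (47.2 to 75.3%), against 62.8% of all genes, so that share was near its background.

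**Figure D1:**
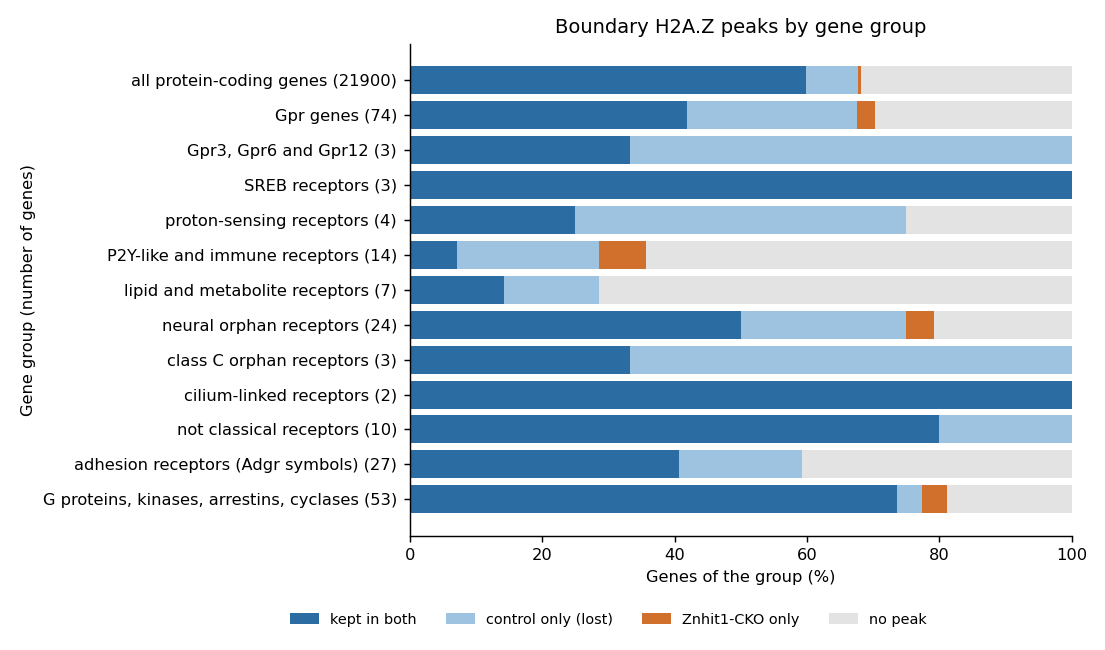
Share of genes (x axis, %) by fate of the boundary H2A.Z peak, for all protein-coding genes, the Gpr genes, their role groups, and other receptor and signalling genes (y axis, number of genes in brackets). The Gpr genes have a control peak as often as all genes but a larger pale blue (lost) part, 19 of 74.

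Width went with fate. Lost control peaks were between 223 and 2072 bp wide with a median of 778 bp, and kept ones between 831 and 4348 bp with a median of 1619 bp. The same medians over all genes were 714 bp for lost and 1487 bp for kept peaks. Of the 17 Gpr genes whose widest control boundary peak was under 1000 bp, 14 lost it (82.4%), against 43.9% of all such genes. Of the 33 with a wider peak 5 lost it (15.2%), against 3.64% of all such genes. Both width classes of Gpr genes thus lay above the value for all genes, and the Gpr control peaks were also narrower, with a median of 1210 bp against 1429 bp.

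**Figure D2:**
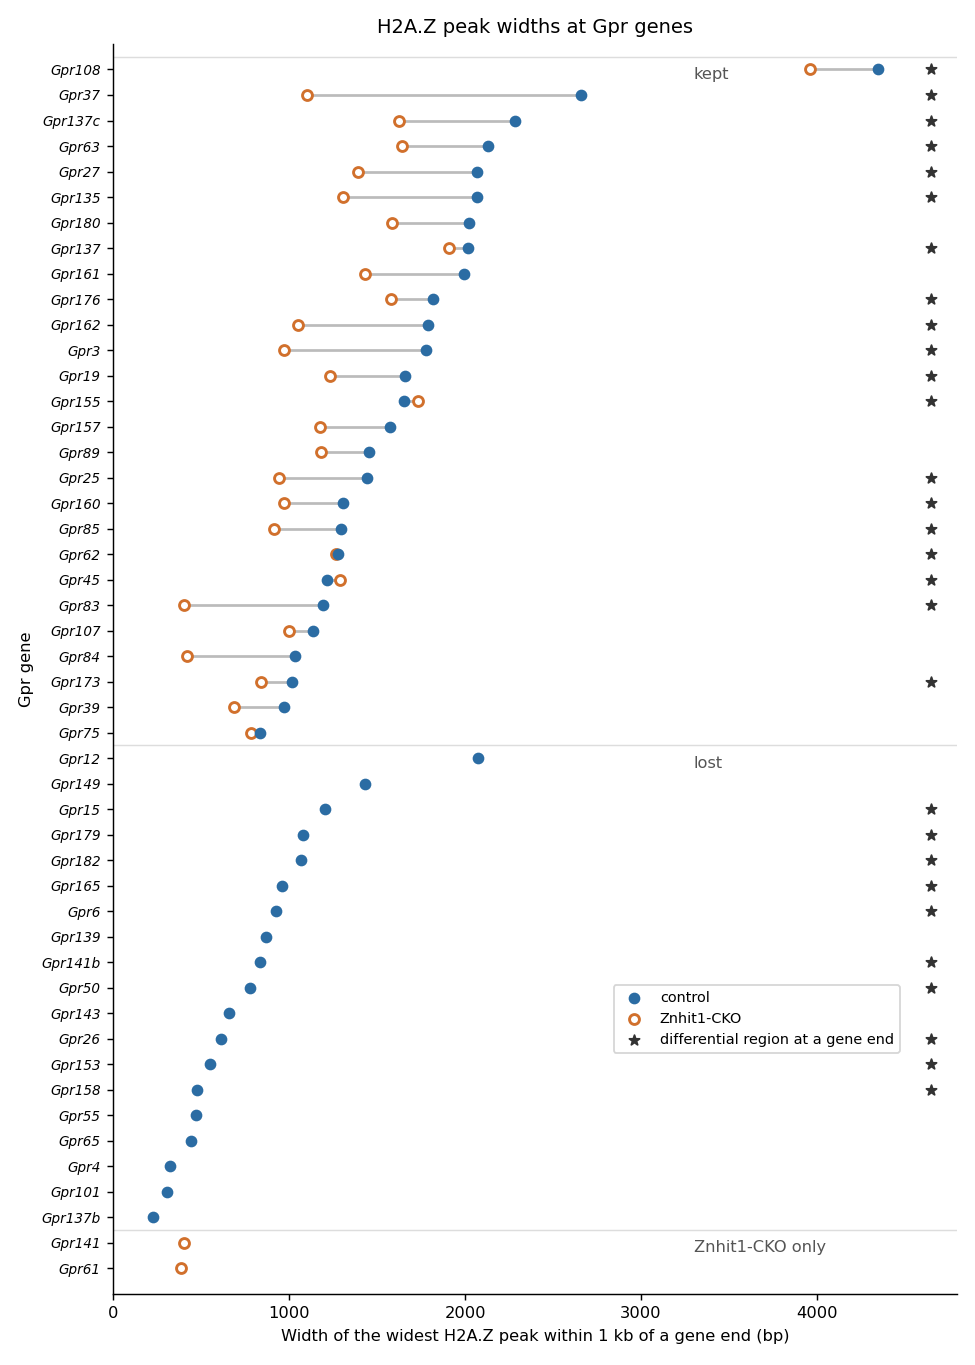
Width of the widest H2A.Z boundary peak (x axis, bp) in control (filled) and Znhit1-CKO (open) for 48 Gpr genes with a peak in either list (y axis), in the order kept, lost, Znhit1-CKO only; stars mark genes with a differential region at an end. The widths drawn for Gpr173 belong to peaks at opposite ends of the gene. All kept control peaks drawn are at least 831 bp wide, and 14 of the 19 lost ones are under 1000 bp.

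The receptors closest to meiosis, Gpr3, Gpr6 and Gpr12, differed from each other. These 3 genes encode close relatives that activate Gs, the G protein that stimulates adenylyl cyclase, without an added ligand. At Gpr3 the control peak of 1780 bp (chromosome 4, 133211579 to 133213358) lay across the annotated start, and a Znhit1-CKO peak of 968 bp lay within it. The Znhit1-CKO peak covered 54.4% of the control length, and a differential region of 400 bp lay on both. Gpr6 had 2 control peaks, of 319 bp across the start and of 926 bp inside the gene (chromosome 10, 41070941 to 41071866), each with a differential region and neither with a Znhit1-CKO peak. The nearest Znhit1-CKO peak was 79367 bp from an end of Gpr6. At Gpr12 a control peak of 2072 bp (chromosome 5, 146583974 to 146586045), the widest lost at any Gpr gene, began 420 bp downstream of the annotated start. A differential region lay on it, 1402 to 1801 bp from the start and so outside the 1 kb window. No Znhit1-CKO peak overlapped it, and the nearest was 7768 bp from an end of the gene.

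**Figure D3:**
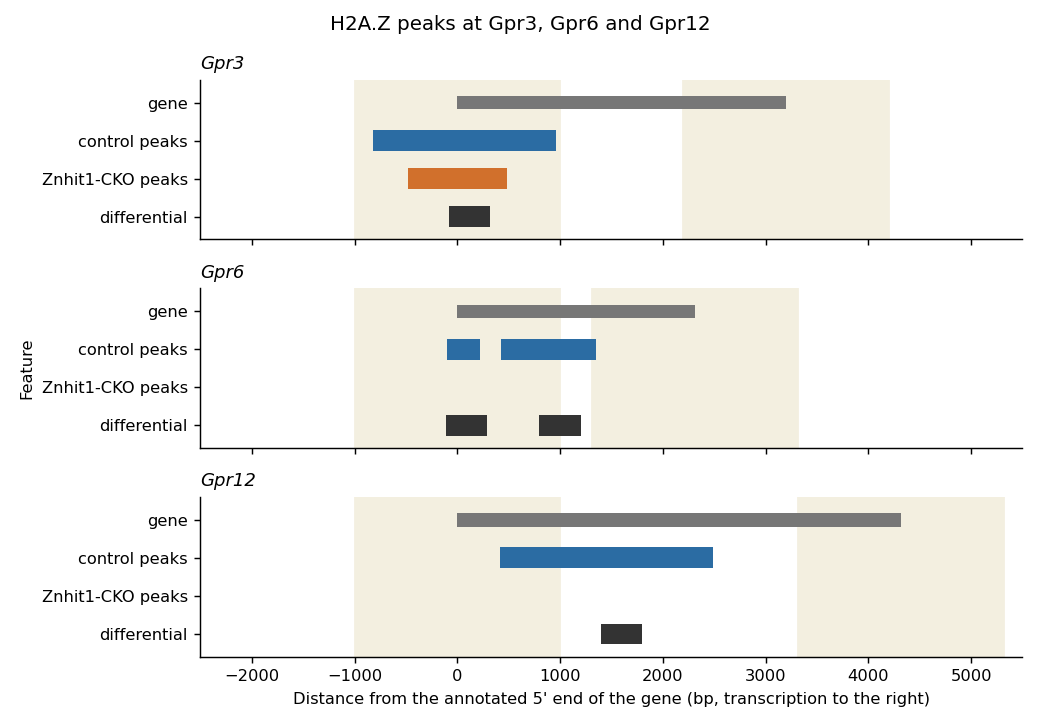
Annotated gene, control peaks, Znhit1-CKO peaks and differential regions (y axis) at Gpr3, Gpr6 and Gpr12, by distance from the annotated 5′ end (x axis, bp); shading marks 1 kb either side of each gene end. Of the 3 genes only Gpr3 has a Znhit1-CKO peak in the span drawn, and each has a differential region on a control peak.

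The promoter windows of Gpr3, Gpr6 and Gpr12 differ likewise. The window of 300 bases from 250 before to 50 after the start holds 38 CpG dinucleotides at Gpr3, 13 at Gpr6 and 11 at Gpr12. The stretch of Gpr12 is not printed, because the start used for it lies inside the gene's annotated span. Gpr6 was the only Gpr gene of 52 with a promoter window in the table whose window holds the cAMP response element in full (TGACGTCA, both strands searched), 78 bases before its start. That is 1.92% of the Gpr windows, against 2.33% of the windows of all genes, so the share was near its background.

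Genes of proton-sensing receptors, which respond to acid, had a control peak at 3 of 4 (75.0%), against 67.6% of all genes. In that group Gpr4 and Gpr65 lost control peaks of 324 and 443 bp, with no differential region. Gpr132 had none. Genes of immune and lipid receptors had few peaks. Among 14 genes of P2Y-like and immune receptors 4 had a control peak, and a differential region lay at each of the 4 (39.8 to 100%). The 62.8% of all genes with a control boundary peak lies inside that interval. Gpr15, which guides T cells to the colon, lost a peak of 1205 bp (chromosome 16, 58717728 to 58718932). Gpr182, an atypical chemokine receptor of endothelial cells, lost 1066 bp, and Gpr141b lost 832 bp. Gpr25 kept a peak, 1442 bp in control and 941 bp in Znhit1-CKO. Gpr141, on chromosome 13 like Gpr141b, had a Znhit1-CKO peak of 401 bp only, 21 bp from an end of the gene. Gpr18, Gpr34, Gpr171, Gpr174 and Gpr183, the last an oxysterol receptor that positions B cells, were among the 9 without a peak in either list.

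The 7 genes of lipid and metabolite receptors had 2 control peaks among them. Gpr55, a receptor for lysophosphatidylinositol, lost 3 control peaks of which the widest was 467 bp, and no differential region lay there. Gpr84, a receptor for medium-chain fatty acids, kept narrow peaks at its 3′ end, the widest of 1030 bp in control and 417 bp in Znhit1-CKO. Gpr119, which binds oleoylethanolamide in the gut and pancreas, Gpr35, Gpr142, Gpr146 and Gpr31b had none. In all, 6 of the 21 genes of the immune and lipid groups had a control boundary peak, where 67.6% of all genes did.

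Genes of orphan receptors known mainly from the brain made up the largest group. Of these 18 of 24 had a control peak (75.0%), against 67.6% of all genes. Of the 18, 12 kept it and 6 lost it (33.3%, 13.3 to 59.0%), against 11.5% of all genes. A differential region lay at 13 (72.2%, 46.5 to 90.3%), and the 62.8% of all genes lies inside that interval. The widest control peak was at Gpr37, a receptor linked to prosaposin, with 2657 bp (chromosome 6, 25688249 to 25690905). On it lay 3 Znhit1-CKO peaks, the widest of 1100 bp, and 71.3% of its control boundary peak length, a second peak of 767 bp included, was covered. Gpr63 had 2132 bp in control and 1641 bp in Znhit1-CKO, and Gpr135 had 2069 and 1307 bp. Gpr83, of hypothalamus and regulatory T cells, had the largest relative difference in width of all kept Gpr genes, with 1193 bp in control and 401 bp in Znhit1-CKO. By contrast Gpr45 was slightly wider in Znhit1-CKO (1215 and 1289 bp), and Gpr62 was of nearly equal width (1278 and 1265 bp). A differential region nevertheless lay at both genes.

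The 6 lost brain receptor genes were Gpr149, Gpr139, Gpr50, Gpr26, Gpr153 and Gpr101, with control widths of 1430, 869, 778, 613, 550 and 305 bp. Gpr149 lay at the edge of the definition, since its control peak was 993 bp from the gene's end and a Znhit1-CKO peak of 913 bp on it was 1152 bp away and covered 63.8% of it. No Znhit1-CKO peak overlapped the control peaks of the other 5. Gpr26, at 798 bp, was the next inside the window, and Gpr146 at 1435 bp and Gpr61 at 1644 bp were the nearest outside it. Gpr61 instead had a Znhit1-CKO peak of 382 bp, 407 bp from an end.

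The SREB receptors, named for being super-conserved and expressed in brain, kept a peak at all 3 genes, each with a differential region. Over all genes that kept the peak 63.4% had such a region. Gpr27 had 2070 bp in control and 1388 bp in Znhit1-CKO, and Gpr85 had 1296 and 915 bp. Gpr173 had 2 control peaks, at opposite ends of the gene. The one across its start was 988 bp wide with a Znhit1-CKO peak of 841 bp on it, and the one at its 3′ end, of 1013 bp, had no Znhit1-CKO peak on it. Gpr27 and Gpr173 share a control boundary peak with Eif4e3 and Tspyl2. Among the class C orphans, Gpr158 lost 476 bp and Gpr179, a gene of retinal bipolar cells, lost 2 peaks, of 1076 bp at its 3′ end and of 226 bp near its start. Both genes of receptors tied to the primary cilium kept peaks and had no differential region, where 63.4% of all kept genes had one. The 2 cilium genes were Gpr161, which restrains hedgehog signalling (1995 and 1428 bp), and Gpr157 (1570 and 1177 bp).

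A group of 10 Gpr genes was set apart here as naming proteins that are not classical receptors. All 10 had a control peak (69.2 to 100%), against 67.6% of all genes. Of the 10, 8 kept it and 2 lost it (20.0%, 2.5 to 55.6%), and the 11.5% of all genes lies inside that interval. Gpr108, a Golgi membrane protein gene, had the widest Gpr peak in both lists. Its control peak spanned 4348 bp (chromosome 17, 57246790 to 57251137) and its Znhit1-CKO peak 3964 bp. Gpr108 lies inside the annotated span of Trip10, so the peak cannot be given to Gpr108 alone. Gpr137 and Gpr137c, of lysosomal membrane proteins, kept 2014 and 2284 bp peaks with 1909 and 1624 bp in Znhit1-CKO. Their relative Gpr137b lost a peak of 223 bp, the narrowest of any Gpr gene. Gpr155, a lysosomal cholesterol sensor gene, was wider in Znhit1-CKO (1653 and 1733 bp). Gpr89, which encodes a Golgi anion channel that regulates pH, had 1453 and 1181 bp, Gpr180 had 2023 and 1586 bp, Gpr160 had 1305 and 968 bp, and Gpr107 had 1134 and 1000 bp. Gpr143, of the melanosome membrane, lost 657 bp. Without these 10 genes, 17 of 40 Gpr genes with a control peak lost it (42.5%), against 11.5% of all genes.

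The other brain receptor genes with a kept peak were Gpr19 (1660 and 1229 bp), Gpr162 (1790 and 1051 bp), Gpr176 (1815 and 1580 bp), a receptor of the circadian clock and Gpr75 (831 and 781 bp). Gpr39, a zinc receptor gene in no role group, kept its peak too (970 and 686 bp), and Gpr165, also in none, lost 956 bp. Of the kept genes in this paragraph, Gpr19, Gpr162 and Gpr176 had a differential region.

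The widest boundary peak of kept Gpr genes was narrower in Znhit1-CKO at 28 of 31 genes (90.3%), and 84.3% of all kept genes were narrower. The median log2 ratio of Znhit1-CKO to control width was -0.43 (95% interval of the median -0.58 to -0.20). The median of -0.26 over all kept genes lies inside that interval. At 4 genes the widest Znhit1-CKO peak had at most 50% of the width of the widest control peak, as at 13.4% of all kept genes. Among them the ratio was -1.57 at Gpr83, -1.30 at Gpr84 and -1.27 at Gpr37. The ratio leaves out the narrower Znhit1-CKO peaks on the Gpr37 control peak. At Gpr3 it was -0.88. The highest ratios were 0.09 at Gpr45 and 0.07 at Gpr155, and that of Gpr62 was -0.01. Znhit1-CKO peaks covered a median of 63.4% of the control boundary peak length over the 50 Gpr genes, lost ones counted as they are. The 95% interval of that median ran from 0.0 to 71.6%. Over all genes with a control boundary peak the median was 78.6%. Among the 31 kept genes the covered share ran from 33.6% at Gpr83 to the whole length at Gpr45 and Gpr155, with a median of 75.0%, against 81.5% over all kept genes.

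**Figure D4:**
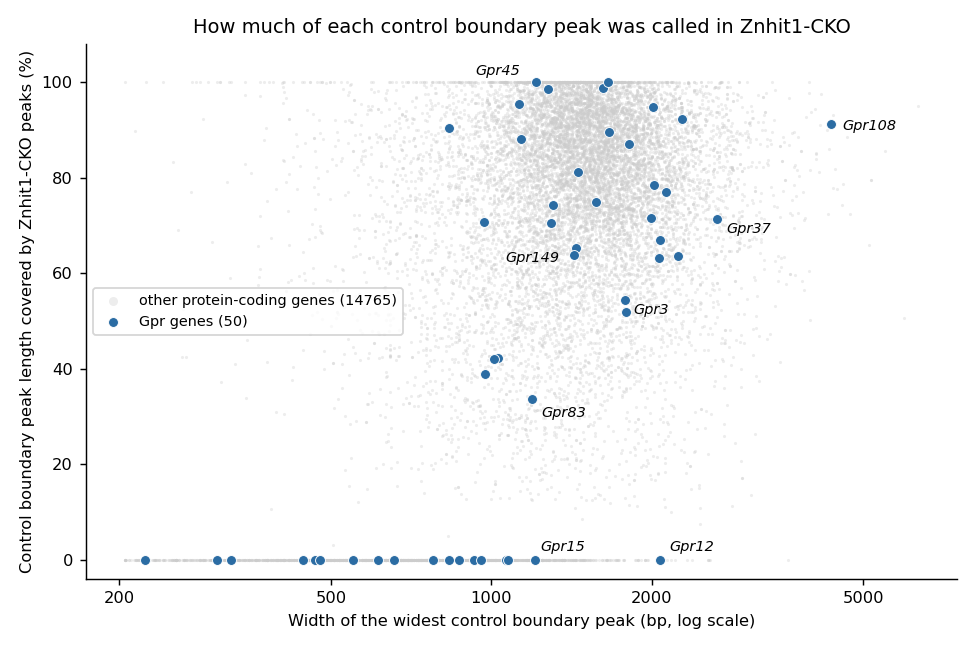
Share of control boundary peak length covered by Znhit1-CKO peaks (y axis, %) against the width of the widest control boundary peak (x axis, bp, log scale) for the 50 Gpr genes (blue) and the 14765 other protein-coding genes with a control peak (grey). Of the Gpr genes 18 have no coverage, of which only Gpr12, Gpr15, Gpr179 and Gpr182 are over 1000 bp wide, while Gpr149 is counted as lost but is covered at 63.8%.

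At lost genes the distance from a gene end to the nearest Znhit1-CKO peak ran from 1152 bp to 256757 bp with a median of 8615 bp, and it was over 50 kb at 7 of the 19 genes, Gpr6, Gpr26, Gpr50, Gpr101, Gpr139, Gpr158 and Gpr165. In 16 of the 19 no Znhit1-CKO peak lay anywhere in the gene or its 1 kb flanks. These distances and counts are given for the Gpr genes only, without a value over all genes. A differential region lay at 10 of the 19 lost genes (52.6%) and at 21 of the 31 kept ones (67.7%), against 58.6% and 63.4% of all lost and kept genes. Its direction is not given, so a region at a kept gene has no stated sign. None of the 24 Gpr genes without a control peak had a differential region at an end, likewise given without a value over all genes. Where a region anywhere on the control peak was counted, 34 of the 50 had one (68.0%), Gpr12 and Gpr149 among those added. Over all genes with a control boundary peak 65.8% had one, so that share was near its background.

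On the X chromosome 5 of 9 Gpr genes had a control peak (55.6%), against 48.0% of all X-linked genes. Gpr50, a relative of the melatonin receptors, Gpr101, of hypothalamus and pituitary, Gpr143 and Gpr165 lost it, and Gpr173 kept the one at its start. Of all X-linked genes with a control boundary peak 26.5% lost it, and 11.1% of autosomal ones. Among autosomal Gpr genes 15 of 45 lost it (33.3%, 20.0 to 49.0%).

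Neighbouring genes complicate the assignment of a peak. Of the 50 Gpr genes with a control peak, 8 shared it with the end of another gene (Gpr27, Gpr62, Gpr135, Gpr137, Gpr137c, Gpr161, Gpr162 and Gpr173), as 26.8% of all genes did, and none of the 8 was without a Znhit1-CKO boundary peak (5.29% of all genes with a shared peak were). At Gpr173 the Znhit1-CKO peak lay at the other end of the gene, and none overlapped the shared peak. Of the 42 others 19 lost it, against 13.8% of all genes with an unshared peak. The annotated span of 25 of the 74 (33.8%) overlapped another protein-coding gene, against 17.6% of all genes. Among the genes without any peak 14 of 22 did (63.6%), against 12.7% of all genes without one. Of the kept genes 10 of 31 did (32.3%) and of the lost 1 of 19 (5.26%). The values over all genes were 20.7% of kept and 13.9% of lost ones. Gpr34 and Gpr82 lie in Cask, Gpr18 and Gpr183 in Ubac2, Gpr171 in Med12l, Gpr21 in Rabgap1, Gpr52 in Rabgap1l and Gpr22 in Cog5. The nearest control peak to an end of the 24 genes without a control boundary peak was between 1435 and 212125 bp away, with a median of 18066 bp.

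CpG content, which the choice of genes did not use, differed with the fate of the peak. A promoter window was found for 52 of the 74. Its CpG count had a median of 18 at 25 kept genes (1 to 38), 8 at 13 lost genes (2 to 35) and 3 at 13 genes without a peak (0 to 9). Over all genes the medians were 21, 8 and 2. All 23 Gpr windows with at least 10 CpG belonged to genes with a control peak, as did 92.6% of all windows with 10 to 19 and 95.3% of those with at least 20. Below 10 CpG, 15 of 29 Gpr genes had a control peak, against 31.2% of all such genes. Of the Gpr genes with a control peak, 7 of 15 below 10 CpG lost it, 5 of 11 with 10 to 19, and 1 of 12 with at least 20. Over all genes the shares were 32.7%, 9.64% and 4.01%.

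**Figure D5:**
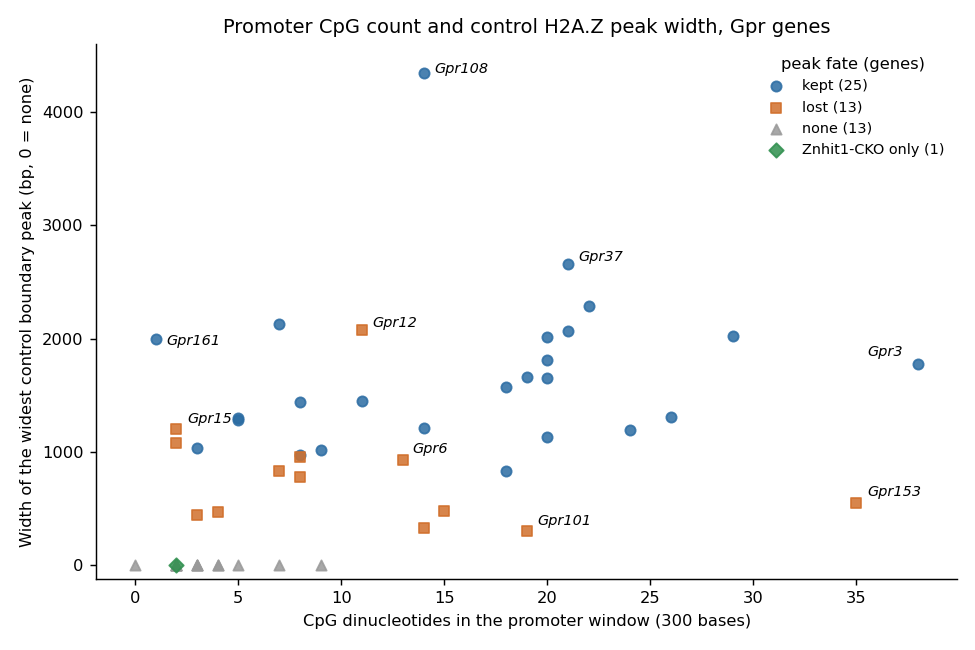
CpG dinucleotides in the 300-base promoter window (x axis) and width of the widest control boundary peak (y axis, bp, 0 for none) for the 52 Gpr genes with a window, by fate. Genes without a peak have at most 9 CpG, and above 19 CpG the only lost gene is Gpr153.

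Single genes went against that order. Gpr153 lost its peak of 550 bp with 35 CpG in its window, Gpr101 lost 305 bp with 19, and Gpr161 kept its peak with 1. The start used for Gpr161 lies inside its annotated span, so that window need not lie under its peak. Gpr15 lost a peak of 1205 bp with 2. Across the 38 Gpr genes with a control peak and a window, CpG count and control width had a Spearman correlation of 0.30, and of 0.36 over 11772 genes. Both values come from the same peak list, and windows and peaks of neighbouring genes are not independent. The GC box (GGGCGG, both strands, as for all motifs here, none of which lies within the letters of another) was present in 19 of the 52 windows (36.5%) and in 46.3% of all windows. It was in 12 of the 25 kept windows (48.0%) and 7 of the 13 lost ones (53.8%), against 66.2% and 37.7% of all such windows. None of the 13 windows of genes without a peak held it, against 12.1% of all such windows. The E-box (CACGTG) was in none of the 52 and in 7.91% of all windows, the NRF1 motif in 1, that of Gpr19, and in 1.33% of all, and the TATA box (TATAAA) in 7 (13.5%) and in 13.3% of all.

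Of the genes that act downstream of the receptors 41 of 53 had a control peak (77.4%, 63.8 to 87.7%). That interval holds the 67.6% of all genes. Of 16 genes of G protein alpha subunits 13 had a control peak, all kept. A differential region lay at 11 of the 13 (84.6%, 54.6 to 98.1%), and the 62.8% of all genes lies inside that interval. Gnas, the gene of the Gs alpha subunit, had none at its annotated ends. Beta and gamma subunit genes had 13 of 17, of which Gngt2 lost its peak of 730 bp. Receptor kinase and arrestin genes had 7 of 10, all kept, the retinal genes Grk1, Sag and Arr3 being those without. Adenylyl cyclase genes had 8 of 10. Adcy8 lost a peak of 2071 bp, and Adcy10, the soluble cyclase of sperm, had none. In all 2 of 41 such control peaks were lost (4.88%, 0.60 to 16.5%), against 38.0% at the Gpr genes. The 11.5% of all genes with a control boundary peak lies inside that interval. These control peaks were also wider, with a median of 1590 bp against 1210 bp at the Gpr genes. The adhesion receptor genes with Adgr symbols, another family that holds many orphans, had a control peak at 16 of 27 and lost 5 of the 16 (31.2%), a value inside the interval of the Gpr genes. The difference between them was not tested.

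Testis cells are a mixture, and a peak does not measure expression. Of the marker genes fixed for cell types, 8 of 8 germ cell and 5 of 5 Sertoli cell genes had a control boundary peak, 1 of 5 Leydig cell genes did, and 3 of 7 genes of peritubular, endothelial and immune cells did. Of these, 5 of the 8 germ cell genes (Piwil1, Stra8, Sycp1, Sycp3 and Tex101) and 2 of the 5 Sertoli cell genes (Cldn11 and Clu) lost it. So did 1 of the 3 genes of peritubular, endothelial and immune cells (Cnn1), while the 1 Leydig cell gene (Cyp11a1) kept it. Over all genes 67.6% had a control boundary peak, and 11.5% of those lost it. Fewer cells of a type and less H2A.Z per cell cannot be told apart in such lists.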

How the data were processed

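Per the labels' protocol, each of 8 libraries (immunoprecipitate or input, 2 genotypes, 2 biological replicates) had over 30 M reads. Depth per library is not given in the files. The submitters' processing notes name mm10, MACS2 2.2.4, Picard 2.20.7, BWA 0.7.17, cutadapt 2.5 and SAMtools 1.9. The authors deposited 48752 control peaks, 31156 Znhit1-CKO peaks and 24367 differential regions as chromosome, start and end only. Not given in the sources used here are thresholds, any pooling of replicates and the sign of a region.

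Starts were converted to count from 1. Peaks and regions were assigned to RefSeq genes within 1000 bp of either gene end. Overlap meant at least 1 bp. Where a gene had several boundary peaks, the widest of each list gave its width, and at Gpr173 these widest peaks do not overlap. Counts per gene equalled those of bedtools 2.31.1 for all 21900 genes, and the scripts were tested on simulated data. The promoter table gave a window, and with it the strand, for 52 of 74 members, taking the start nearest the gene's outer 5′ end. At some genes, Gpr12, Gpr19, Gpr155, Gpr161, Gpr176 and Gpr180 among them, that start lies inside the gene's own annotated span. Sequence stretches inside any annotated gene or on the chromosome barred from printing were passed over. Members and lists were chosen with earlier results of these data known. Some members count in all totals but are not reported here by name. The rule gave values for all lost genes, those with a Znhit1-CKO peak only, the 8 widest control peaks, the 5 lowest and 5 highest width ratios, and members of each role group, and further members were added. The tools were pandas 2.3.3, numpy 2.4.6, matplotlib 3.10.9 and scipy 1.17.1 under Python 3.11.15.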

Additional observations from a re-analysis of the deposited data

How the results depend on the processing

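No paired analysis was possible because each genotype has a single peak list without values per replicate, so no replicate could be left out either. How the replicates entered each list is not given. Of 40 alternative values for the 5 main results, 39 stayed within the interval of the reported value. For the median covered share that interval ran from 0.0 to 71.6%, so its 7 values inside it say little about stability. The share of Gpr genes with a differential region (62.0%) fell outside it with a 500 bp window, at 45.7% against 59.3% of all genes. Some regions then lie outside the narrower window by construction. The lost share (38.0%) ran from 33.3% at the autosomes or the transcription start alone to 45.2% for peaks shared with no other gene. Requiring an overlap of 50% in both directions gave 42.0%, against 23.4% of all genes. The median log2 width ratio stayed between -0.50 and -0.38. Leaving out shared peaks was not run for the share of genes with a control peak, since it removes only genes with a peak. The count of regions anywhere on a control peak was chosen after seeing the data. Unknown depth makes narrow peaks near the calling threshold the least certain, and 14 of the 19 lost ones are under 1000 bp.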
